A study of Homo sapiens with 11 samples.

Results

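Axon guidance cues are secreted or membrane-bound proteins that attract or repel growing axons, and their receptors turn the cue into a change of the cytoskeleton. The main families are semaphorins with plexin and neuropilin receptors, Slits with Robo receptors, netrins with DCC and UNC5 receptors, and ephrins with Eph receptor tyrosine kinases. They also guide neural crest cells and blood vessels, and many are used again by tumour cells. The 45 genes described here were chosen by name from these families, and all 45 were found among the 19974 protein-coding genes of the RefSeq table. They were 10 semaphorins, 7 plexins and neuropilins, 6 Slit and Robo genes, 7 genes of netrins, DCC and UNC5 receptors, 6 ephrins and 9 Eph receptors.

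The data were ChIP-seq peak lists from SK-N-MC (written SKNMC in the labels), an established human Ewing sarcoma cell line. Ewing sarcoma cells carry a fusion of EWSR1 with FLI1, an ETS transcription factor, and the FLI1 antibody recognises the part of FLI1 kept in that fusion. There was 1 sample, labelled wildtype with no treatment named, for each of 9 targets, plus 2 input libraries that were not analysed here. The targets were FLI1, the histone marks H3K27ac, H3K4me1, H3K4me3 and H3K27me3, and 4 subunits of the nucleosome remodelling and deacetylase complex (NuRD): CHD4, HDAC2, MTA2 and RBBP4. CHD4, the remodelling ATPase, was pulled down through a Flag tag; how the cells came to carry the tag is not stated in the labels. H3K4me3 marks promoters, H3K27ac active promoters and enhancers, H3K4me1 mainly enhancers, and H3K27me3 chromatin repressed by Polycomb. With 1 list per target no value has a replicate error and no test between conditions was possible. Read depth was unknown, so a missing peak means only that none was called. As a check of the cell type, 8 known Ewing genes were looked at (NKX2-2, NR0B1, CD99, STEAP1, LIPI, CCND1, PRKCB and XG). All 8 of 8 had a FLI1 peak within 100 kb, against 12.3% of all protein-coding genes. Within 1 kb of an annotated end 7 had H3K27ac, against 39.4%, and 6 had H3K4me3, against 57%. CD99 had neither of these 2 marks there.

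A gene was counted for a target when any base of a peak lay within 1 kb of either annotated end of the gene. The share of all protein-coding genes stands beside the counts over the members. Axon guidance genes are long, with a median of 179.5 kb against 24.2 kb for all genes, so the 33 members of 50 kb or longer were also set beside the 6258 protein-coding genes of that length. These sets still differed in length, with medians of 254.7 kb and 106 kb. Intervals in brackets are 95% Wilson intervals and cover counting over genes only. Fold enrichment is the height of a peak over its local background as given by the authors' peak caller, and its percentile is its place within that target's own list.

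Promoters of the 3 kinds met below are shown as the 250 bases before the RefSeq start (GRCh38.p14), 5′ to 3′ along the gene, with every CG dinucleotide in capitals. PLXNA1 and EPHA4 carried H3K4me3 and H3K27ac at their start, PLXNA2 and NRP2 H3K4me3 with H3K27me3, and SEMA5A and SLIT1 no peak of any target. They are examples and do not show the full range of base composition in every kind.
PLXNA1 (chr3:126982865-126983114, + strand): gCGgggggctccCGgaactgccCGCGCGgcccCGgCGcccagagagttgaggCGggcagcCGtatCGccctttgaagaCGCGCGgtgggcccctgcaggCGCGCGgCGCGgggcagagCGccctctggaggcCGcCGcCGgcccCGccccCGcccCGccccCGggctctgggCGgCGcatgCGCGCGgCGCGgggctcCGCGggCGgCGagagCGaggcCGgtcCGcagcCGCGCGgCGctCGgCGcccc
EPHA4 (chr2:221574203-221574452, - strand): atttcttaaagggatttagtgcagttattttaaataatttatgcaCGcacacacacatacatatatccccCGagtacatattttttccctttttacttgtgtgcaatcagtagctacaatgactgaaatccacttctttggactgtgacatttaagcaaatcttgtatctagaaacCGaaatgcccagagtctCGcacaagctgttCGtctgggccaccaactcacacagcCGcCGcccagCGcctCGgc
PLXNA2 (chr1:208244385-208244634, - strand): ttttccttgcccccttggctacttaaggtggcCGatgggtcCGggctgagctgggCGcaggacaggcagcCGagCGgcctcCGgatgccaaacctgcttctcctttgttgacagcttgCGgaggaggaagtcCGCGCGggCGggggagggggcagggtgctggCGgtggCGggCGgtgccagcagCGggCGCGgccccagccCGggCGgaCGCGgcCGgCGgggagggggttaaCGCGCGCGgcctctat
NRP2 (chr2:205682251-205682500, + strand): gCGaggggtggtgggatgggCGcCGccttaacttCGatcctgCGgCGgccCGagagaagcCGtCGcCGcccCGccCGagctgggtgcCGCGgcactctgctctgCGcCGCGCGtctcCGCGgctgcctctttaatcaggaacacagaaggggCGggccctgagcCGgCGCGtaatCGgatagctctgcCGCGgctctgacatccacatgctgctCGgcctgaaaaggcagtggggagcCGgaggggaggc
SEMA5A (chr5:9546076-9546325, - strand): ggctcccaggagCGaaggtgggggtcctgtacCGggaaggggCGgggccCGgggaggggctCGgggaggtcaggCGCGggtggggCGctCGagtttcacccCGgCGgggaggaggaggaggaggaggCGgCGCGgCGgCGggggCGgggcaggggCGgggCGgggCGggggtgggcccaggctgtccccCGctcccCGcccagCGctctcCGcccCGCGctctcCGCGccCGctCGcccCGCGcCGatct
SLIT1 (chr10:97185960-97186209, - strand): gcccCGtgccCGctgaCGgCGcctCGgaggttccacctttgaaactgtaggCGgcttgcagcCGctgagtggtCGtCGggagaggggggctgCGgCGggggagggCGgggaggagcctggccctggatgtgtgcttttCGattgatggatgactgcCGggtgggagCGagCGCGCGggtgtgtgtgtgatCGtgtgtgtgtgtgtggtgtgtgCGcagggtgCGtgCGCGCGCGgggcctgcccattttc

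The GC content of these 250 bases was 84.4% in PLXNA1 with 46 CG dinucleotides, and 43.2% in EPHA4 with 9. It was 72.4% in PLXNA2 with 27 CG and 70% in NRP2 with 29. SEMA5A, which had no peak, reached 82% with 33 CG, and SLIT1 68.4% with 25. Starts not shown went beyond these values. With H3K4me3 and H3K27me3, EPHB2 had 84.8% and NTN4 64.4%. Without a peak, SEMA3E had 46.4% with 6 CG and DCC 56% with 10. CG-rich sequence was thus present at starts with each of the 3 outcomes, and a CG-poor start such as that of EPHA4 held H3K4me3. Over the 38 members with a start in the RefSeq promoter table, the median number of CG was 20.5 in the 26 with H3K4me3 within 1 kb of the start and 13.5 in the 12 without. Over all 15812 protein-coding promoters of the table the medians were 22 and 5. The 5 members with H3K27me3 within 1 kb of that start had a median of 29 CG, between 20 and 42.

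Members were also searched, on both strands, for 2 letter strings in the window from 250 bases before to 50 bases after the start. GGAAGGAA, a tandem of the core of the repeats that the fusion is known to bind, was found in 3 of 38 members (PLXNB1, SLIT3 and UNC5A) and in 3.55% of all promoters. CCGGAAGT, a strong ETS site that can share the letters GGAAG with the tandem, was found in 0 of 38, which allows a share of up to 7.89%, and in 6.20% of all promoters. A match is a description of the letters and not a binding site.

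H3K4me3 was present at the ends of 31 of the 45 axon guidance genes (68.9%, 54.3 to 80.5), against 57% of all protein-coding genes. Among genes of 50 kb or longer it was present at 21 of 33 members (63.6%) and at 63.7% of all such genes, so the share was near the background of long genes. H3K27ac was present at 16 of 45 (35.6%), against 39.4% of all genes, and among the longer genes at 9 of 33 (27.3%) against 41.1%. All 16 members with H3K27ac also had H3K4me3, as did 96.9% of all genes with H3K27ac at an end. H3K27ac thus accompanied H3K4me3 in 51.6% of the 31 members, against 66.9% of all genes with H3K4me3 at an end.

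H3K27me3 lay at the ends of 4 of 45 members (8.89%, 3.51 to 20.7), PLXNA2, NRP2, NTN4 and EPHB2, against 2.37% of all genes and 3.79% of those of 50 kb or longer. All 4 also had H3K4me3. H3K4me3 with H3K27me3, a combination known as bivalent, was found at 1.37% of all genes, counted with or without H3K27ac. None of the 4 members had H3K27ac at an end. H3K4me1 was near the ends of 8 of 45 members (17.8%, 9.29 to 31.3), against 7.7% of all genes. For 4 of these 8 (PLXNA1, PLXND1, EFNB1 and EPHB4) the H3K4me1 peak lay at the far end of the gene and not at its start. Within 1 kb of the RefSeq start H3K4me1 was found in 1 of 38 members, SEMA3C, against 4.18% of all genes with such a start.

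Of the NuRD subunits, HDAC2, a histone deacetylase with the longest of the 4 subunit lists, was found at the ends of 21 of 45 members (46.7%, 32.9 to 60.9), against 39.1% of all genes. RBBP4, a histone-binding subunit, was at 11 (24.4%) against 22.1%, MTA2, a scaffold subunit, at 7 (15.6%) against 20.9%, and CHD4 at 5 (11.1%) against 10.5%. These shares lay near the background, and among genes of 50 kb or longer HDAC2 was at 39.4% of members and 46.8% of all. All 22 members with a subunit near an end (48.9%, against 45.4% of all genes) also had H3K4me3 near an end. This was near the background. Of all genes with a given subunit near an end, H3K4me3 was at 95.8% for HDAC2, 96.4% for MTA2, 96.4% for RBBP4 and 91.6% for CHD4. Of the 31 members with H3K4me3, 67.7% had HDAC2, against 65.8% of all genes with H3K4me3. All 4 subunits were found at 4 of 45 members, PLXNA1, PLXND1, EPHA3 and EPHB4, against 5.63% of all genes.

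FLI1 had no peak within 1 kb of an end of any of the 45 members, which allows a share of up to 6.67% when 3 genes are taken as the limit of a count of 0 (7.87% as the upper Wilson limit), against 0.856% of all genes. No target had a peak near an end of 13 members (28.9%), against 38.1% of all genes.

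**Figure D1:**
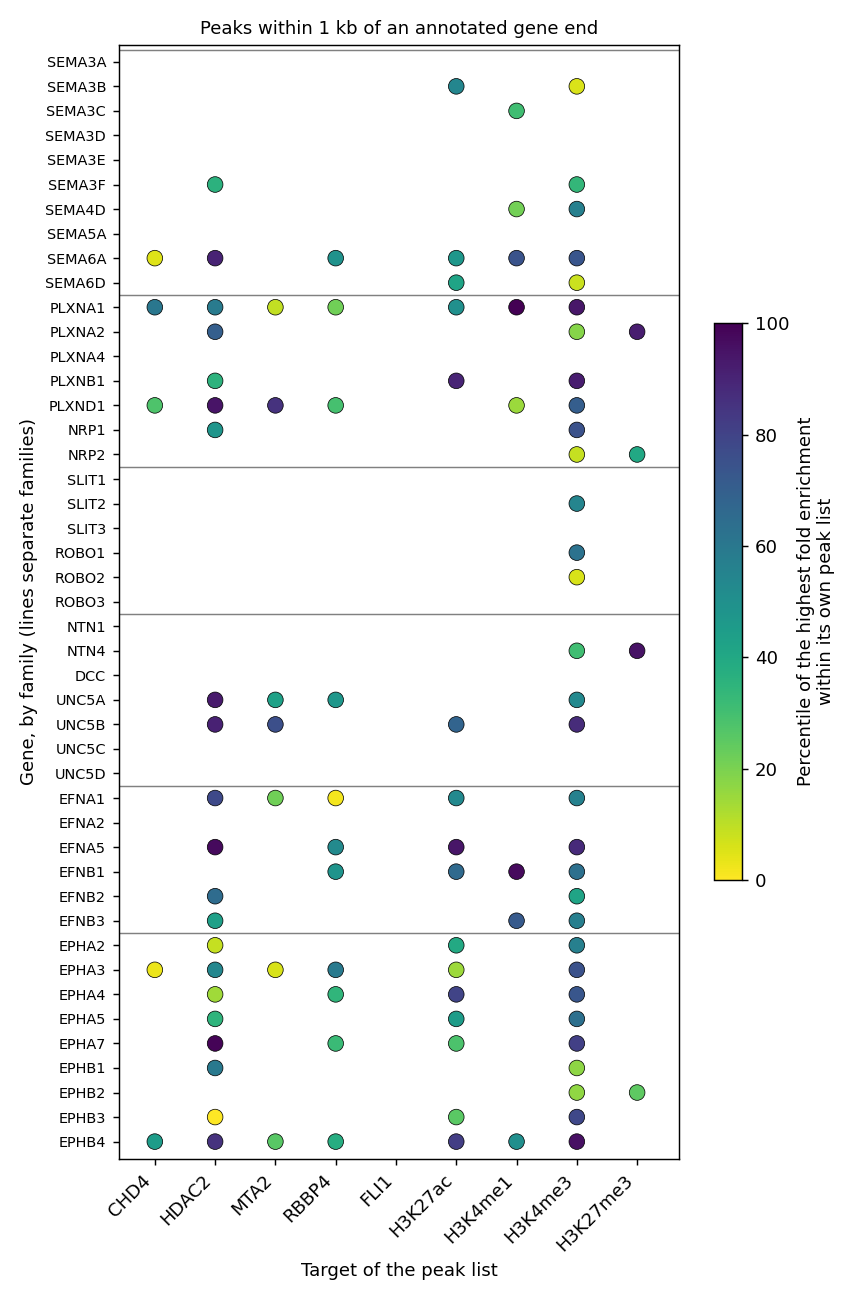
Peaks within 1 kb of an annotated end of the 45 axon guidance genes (rows, grouped by family) for the 9 targets (columns). Each dot is a gene with at least 1 such peak, coloured by the percentile of its highest fold enrichment within that target's list. The H3K4me3 column is filled for all 9 Eph receptors at the bottom, and the FLI1 column is empty.

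**Figure D2:**
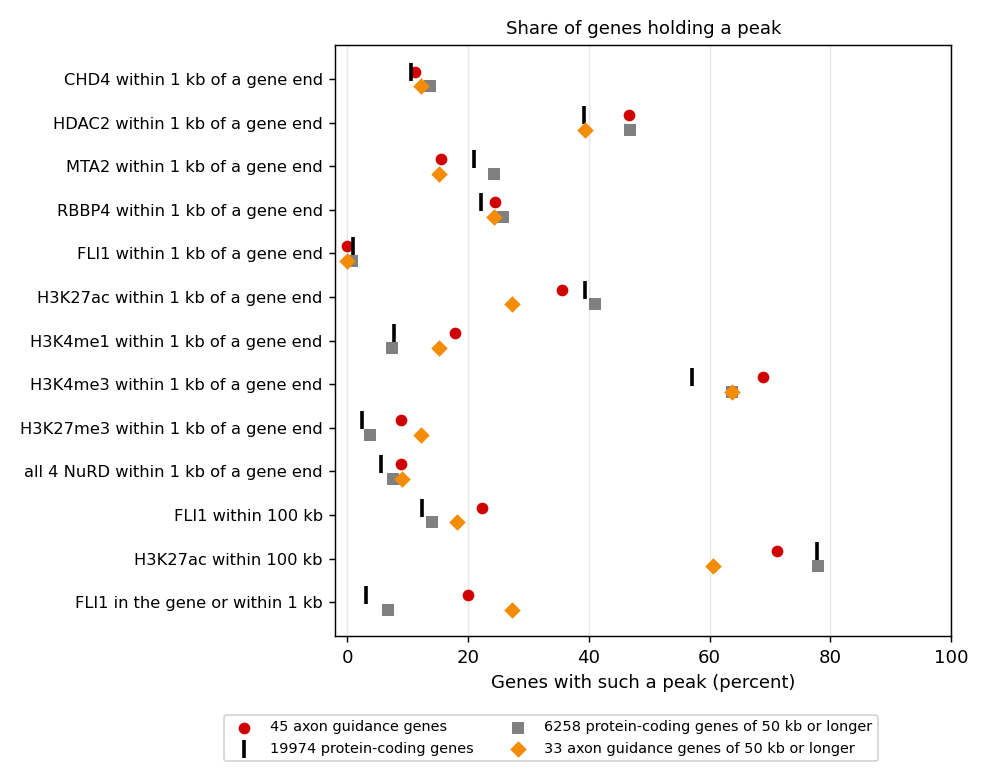
Percent of genes with a peak of each kind (rows) for the 45 axon guidance genes (circles), all 19974 protein-coding genes (vertical bars), and the members (diamonds) and all genes (squares) of 50 kb or longer, drawn slightly lower. Members lie above all genes for H3K27me3 (8.89% and 2.37%), H3K4me1 (17.8% and 7.7%) and H3K4me3 (68.9% and 57%). The same holds for FLI1 within 100 kb (22.2% and 12.3%) and within the gene or 1 kb (20% and 3.09%). Among the longer genes H3K4me3 is level (63.6% and 63.7%). There members lie lower for H3K27ac, at ends (27.3% and 41.1%) and within 100 kb (60.6% and 77.9%).

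The Eph receptors, tyrosine kinases that bind ephrins on neighbouring cells, all carried H3K4me3. It was at the start of all 9, while 8 had HDAC2 and 7 had H3K27ac, against 57%, 39.1% and 39.4% of all genes. The families are small and were not tested against each other or against all genes. EPHB4, the receptor of EFNB2 in veins (chromosome 7), had the highest H3K4me3 peak of all members, with a fold enrichment of 28.4 (percentile 95.9), and an H3K27ac peak of 11.4. At its start HDAC2 reached 6.97, MTA2 5.48, RBBP4 3.91 and CHD4 3.40, with summits 141 to 317 bp upstream. A second CHD4 peak of 4.50 and an H3K4me1 peak of 6.02 lay at its far end.

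EPHA3 had all 4 subunits as well, with fold enrichments of 5.21 for HDAC2, 4.57 for RBBP4, 4.20 for MTA2 and 2.95 for CHD4, the last at percentile 2.99 of its list. EPHA7, a receptor involved in the mapping of axons in the brain, had the highest HDAC2 peak at a member end. Its fold enrichment was 10.5 (percentile 98.97), and its summit lay 2500 bp into the gene. An overlapping H3K4me3 peak reached 22.5, with its summit at 428 bp. EPHA4, a receptor for both classes of ephrins, had H3K4me3 of 20.8 and H3K27ac of 11.0. EPHB3 had H3K4me3 of 21.8 with the weakest HDAC2 peak, 2.58 (percentile 0.184). EPHA2 and EPHA5 had H3K4me3 of 17.5 and 18.8 with H3K27ac of 6.75 and 7.08. EPHB1 had HDAC2 of 5.43 and a low H3K4me3 peak of 9.38, without H3K27ac. EPHB2 was the Eph receptor with H3K27me3, at 5.31 with H3K4me3 of 9.26, and it had no NuRD subunit. Thus 7 receptors shared H3K4me3 with H3K27ac, while EPHB1 and EPHB2 had lower H3K4me3 and no H3K27ac.

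Ephrins are membrane-anchored ligands, those of class A by a lipid and those of class B by a transmembrane stretch. H3K4me3 was present at 5 of 6, against 57% of all genes. EFNA5 (chromosome 5, 107376894 to 107670937) stood out for its height, with H3K27ac of 15.9 (percentile 94.5), the highest at any member end, HDAC2 of 9.21 (percentile 97.4) and H3K4me3 of 24.5. CHD4 and MTA2 were not counted at EFNA5, because their peaks lay just beyond the 1 kb window. A merged site with all 4 subunits was centred 1.44 kb from its start, where CHD4 reached 5.92 and MTA2 14.8. EFNA1 had H3K4me3 at both ends, 11.97 at the start and 17.4 at the far end, and HDAC2 of 6.34. The far-end summit of H3K4me3 lay 629 bp beyond the gene, and RBBP4 (2.63) was found at that end only. Of 17 H3K27ac peaks within 100 kb, 2 had an end of EFNA1 as the nearest. EFNB1 had H3K4me3 of 18.8, H3K27ac of 8.91 and RBBP4 of 4.21. EFNB2 (H3K4me3 14.6, HDAC2 5.67) and EFNB3 (17.6 and 4.86) had no H3K27ac. EFNA2 had none of the 9 targets within 1 kb of an annotated end. It did have 3 H3K27me3 peaks inside the gene, the highest at 9.31. They spanned -0.556 to 2.13 kb from the RefSeq start, a position inside the annotated gene.

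Plexins transmit semaphorin signals and neuropilins are their co-receptors, and 6 of these 7 genes had H3K4me3, against the same 57%. PLXNA1 had H3K4me3 of 27.2, H3K27ac of 7.46 and all 4 subunits, with CHD4 at 4.97 (percentile 60.2), the highest CHD4 peak at a member end. Its subunit summits lay 274 to 328 bp upstream of the start. PLXND1, the receptor of SEMA3E in vessels, had HDAC2 of 8.26 (percentile 94.7) and MTA2 of 9.40 (percentile 85.9), with H3K4me3 of 20.1 and no H3K27ac within 1 kb of either end. PLXNB1, the receptor of SEMA4D, had H3K4me3 of 26.0 and H3K27ac of 13.8 with HDAC2 alone of the subunits. NRP1 had H3K4me3 of 21.0 and HDAC2 of 5.00. NRP2 had a low H3K4me3 peak of 7.56 (percentile 8.78) beside H3K27me3 of 5.98, and PLXNA4 had no peak near its ends.

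Semaphorins are the ligands of these receptors. H3K4me3 was at 5 of 10 semaphorins, near the 57% of all genes, SEMA3B, SEMA3F, SEMA4D, SEMA6A and SEMA6D. SEMA6A, a transmembrane semaphorin that binds A-class plexins, had the highest of these at 20.8, with H3K27ac of 7.22, HDAC2 of 7.51, RBBP4 of 4.25 and CHD4 of 3.11. SEMA4D reached 17.5, SEMA3F 13.0, SEMA6D 7.39 and SEMA3B 6.86. The summits of SEMA3B and SEMA4D lay at -12714 and -2044 bp from their RefSeq starts, so these peaks were at an annotated end only. Among the netrin group, H3K4me3 was at 3 of 7, below that share but not tested. UNC5B, a repulsive netrin receptor also known from vessels, had H3K4me3 of 24.4, H3K27ac of 9.17, MTA2 of 8.29 and HDAC2 of 7.53. UNC5A had HDAC2 of 7.94 (percentile 93.3), MTA2 of 6.29, RBBP4 of 4.18 and H3K4me3 of 16.8, but no H3K27ac. NTN4, a netrin of basement membranes, had H3K4me3 of 12.3 with H3K27me3 of 8.50 (percentile 95.1). In the Slit and Robo family, H3K4me3 was the only one of the 9 targets at any end. It was at SLIT2 (17.1), ROBO1 (18.5) and ROBO2 (6.90), while SLIT1, SLIT3 and ROBO3 had none near an annotated end. The ROBO2 peak was weak (−log10 p 13.2). Its summit lay at -404041 bp from the RefSeq start of ROBO2, and no H3K4me3 was called within 1 kb of that start.

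Not every H3K4me3 peak of these genes lay at an annotated end. Of the 14 members without H3K4me3 near an end, 5 had an H3K4me3 peak deeper inside the gene, namely SEMA3A, SEMA3C, SEMA3D, ROBO3 and NTN1. These 5 of all 45 members (11.1%) stand against 4.96% of all genes, and among those of 50 kb or longer 12.1% of members stand against 9.30% of genes. SEMA3A, a secreted repellent that signals through NRP1 and A-class plexins, had such a peak of 15.1 at 238.7 kb from its nearest annotated end. That peak overlapped CHD4, HDAC2 and RBBP4. SEMA3D had a peak of 19.6 with CHD4, HDAC2, RBBP4 and H3K27ac, 63.7 kb from the annotated end and at its RefSeq start. SEMA3C had a peak of 19.0 located 3.56 kb inside the gene, with CHD4, HDAC2 and MTA2. ROBO3, which lets commissural axons cross the midline, had a peak of 8.10 with CHD4, HDAC2 and RBBP4 at its RefSeq start. NTN1, the netrin that attracts axons to the midline, had a peak of 15.6 with HDAC2 and MTA2. With the whole gene and 1 kb around it counted, a window chosen after the data had been seen, H3K4me3 was found in 36 of 45 members (80%), against 62% of all genes and 73.0% of those of 50 kb or longer. In that window no target was found in 4 members, SEMA5A, SLIT1, DCC and UNC5D, against 29.3% of all genes and 14.5% of the longer genes. DCC, the netrin receptor, spans 1196 kb.

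Over the same longer window the NuRD subunits and enhancer marks were found in more members than at the ends. HDAC2 was in 34 of 45 members, against 48.2% of all genes and 65.4% of those of 50 kb or longer, and RBBP4 in 30, against 31.9% and 48.5%. CHD4 was in 23, against 21.6% and 39.8%, and MTA2 in 23, against 31.1% and 47.2%. H3K4me1 was in 31, against 26.6% and 49.0%, H3K27ac in 28, against 46.3% and 56.0%, and H3K27me3 in 7, against 3.88% and 7.16%. Each of these backgrounds was higher in long genes, and of the 33 long members 69.7% held H3K4me1, 69.7% RBBP4, 69.7% HDAC2, 63.6% H3K27ac, 57.6% CHD4, 54.5% MTA2 and 15.2% H3K27me3.

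With the window set around the RefSeq start alone, 26 of 38 members had H3K4me3, against 59.3% of all genes with such a start, and 14 had H3K27ac, against 40.6%. HDAC2 was at 19 starts, against 39.3%, RBBP4 at 11, against 22.5%, CHD4 at 6, against 9.85%, and MTA2 at 6, against 20.8%. H3K27me3 was at 5, the 4 bivalent members and EFNA2, against 2.16%, and FLI1 at 0, against 0.847%. Apart from H3K4me1, the start window thus gave shares near those at either end.

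The called summits around these starts differed by target. The highest H3K4me3 peak within 1 kb of the start had its summit downstream in 24 of 26 members, at a median of 443 bp. HDAC2 summits were at a median of -7 bp, with 9 of 19 downstream, and H3K27ac summits at 232.5 bp, with 10 of 14 downstream. MTA2 summits lay upstream in all but 1 of 6 members, at a median of -117 bp. These positions are descriptions of the called summits and were not tested.

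FLI1 peaks were next looked for within 100 kb of an annotated end. They were found for 10 of 45 members (22.2%, 12.5 to 36.3), against 12.3% of all genes, and among the longer genes for 6 of 33 (18.2%) against 14.1%. The 10 members were SEMA3B, SEMA3D, PLXNA2, UNC5A, EFNA2, EFNA5, EPHA5, EPHB1, EPHB3 and EPHB4, each with 1 peak. At a −log10 p of at least 15 the 5 left were SEMA3D, PLXNA2, UNC5A, EFNA5 and EPHA5, against 6.22% of all genes. Only 5 of the 10 peaks were nearer to an end of the member than to an end of any other protein-coding gene. These were the peaks of SEMA3D, PLXNA2, EFNA5, EPHA5 and EPHB1.

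The strongest of the 10 lay inside SEMA3D (chromosome 7, 85078185 to 85078501), 82.8 kb from its nearest annotated end. Its −log10 p was 44.5, rank 278 of 1561 FLI1 peaks, and its fold enrichment 8.47. It overlapped H3K27ac of 7.32 and all 4 subunits, with MTA2 at 15.2, HDAC2 at 8.04, RBBP4 at 5.92 and CHD4 at 5.59. The peak of EPHA5 (chromosome 4, 65698439 to 65698800) lay outside the gene, 28.1 kb upstream of its start, with a −log10 p of 39.2. It overlapped MTA2 of 15.6, CHD4 of 7.58, HDAC2 of 6.18, RBBP4 of 6.02 and H3K27ac of 8.55. No other gene end lay nearer than 1289 kb, that of TECRL.

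In EFNA5 the FLI1 peak (chromosome 5, 107389118 to 107389466) lay inside the gene, 12.4 kb from its far end and away from the acetylated start, with a −log10 p of 33.97. MTA2 of 16.1, RBBP4 of 8.60, HDAC2 of 7.54 and CHD4 of 4.63 overlapped it, while the nearest H3K27ac peak was 181757 bp away. In PLXNA2 the peak (chromosome 1, 208207544 to 208207823, −log10 p 20.4) overlapped MTA2 of 11.6 and HDAC2 of 10.1 without CHD4 or RBBP4. UNC5A held a peak inside the gene with a −log10 p of 15.4 and no subunit, 22.2 kb from its far end and 22.1 kb from an end of HK3. EPHB1 held a peak of 12.7 with no subunit.

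The other 4 of the 10 were near other genes. The peak counted for SEMA3B (−log10 p 13.2) lay 0.17 kb from an end of TMEM115, and that of EFNA2 (13.2) inside MIDN, where it overlapped H3K4me3 of 13.9, H3K27ac of 15.2 and all 4 subunits. The peak of EPHB4 (13.2) lay 3.40 kb beyond its far end and 1.37 kb from an end of ZAN, with MTA2 alone. The peak of EPHB3 (13.7) was 98.4 kb away, overlapped all 4 subunits, and was nearer to MAGEF1, at 29.6 kb.

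Long genes also held FLI1 peaks farther than 100 kb from both ends, in SEMA3A, SEMA6D, ROBO2 and NTN1, with 8 such peaks in all. The strongest FLI1 peak of any member was in SEMA3A (chromosome 7, 84136552 to 84137137), 181.2 kb from its nearest annotated end, with a −log10 p of 58.0 (rank 162), a fold enrichment of 13.6, MTA2 of 12.9 and H3K27ac of 14.7. A second peak of −log10 p 12.9 lay beside it, 182.3 kb from that end, and both overlapped all 4 subunits. SEMA6D, a transmembrane semaphorin, held 3 peaks, of −log10 p 44.5, 27.3 and 23.7, and each overlapped all 4 subunits. ROBO2 held 2 peaks, of 22.4 and 10.2, each with 2 subunits. NTN1 held 1 peak of 10.0 without a subunit.

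With these, 9 of 45 members (20%) had a FLI1 peak within the gene or 1 kb around it, against 3.09% of all genes and 6.78% of those of 50 kb or longer. Of the longer members the share was 27.3%. Because longer genes have more room for peaks, the density was also taken. FLI1 peaks numbered 0.103 per 100 kb over the longer members pooled, and 0.0478 over all genes of 50 kb or longer. The median per gene was 0 in both sets. The pooled value of the members rests on 13 peaks in 9 genes, with 3 in SEMA6D and 2 each in SEMA3A and ROBO2. Of the 18 FLI1 peaks in or within 100 kb of a member, 10 (55.6%) overlapped all 4 subunits and 4 (22.2%) overlapped none. Over all 1561 FLI1 peaks these shares were 55.4% and 14.4%.

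**Figure D3:**
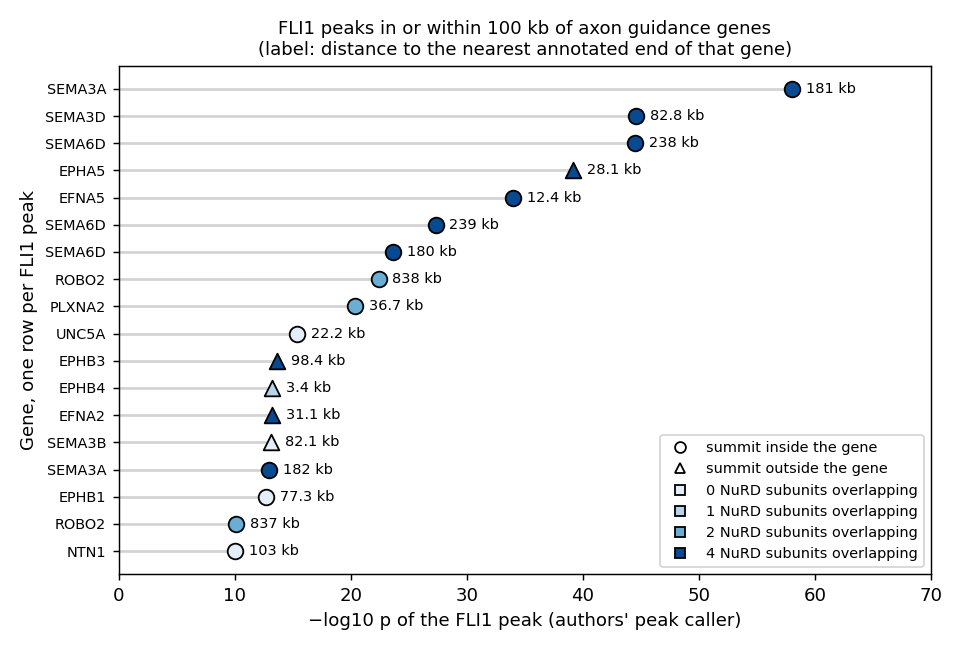
The 18 FLI1 peaks in or within 100 kb of axon guidance genes, 1 row each, by −log10 p (horizontal axis). Circles lie inside the gene, triangles outside, darker blue means more overlapping NuRD subunits, and the labels give the distance in kb to the nearest annotated end of that gene. The 7 strongest peaks, in SEMA3A, SEMA3D, SEMA6D, EFNA5 and near EPHA5, overlapped all 4 subunits.

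H3K27ac within 100 kb of an annotated end was found for 32 of 45 members (71.1%), against 77.8% of all genes. Among genes of 50 kb or longer it was found for 20 of 33 members (60.6%) and 77.9% of all. Members and all genes both had a median of 3 such peaks. EPHB3 had 20, EPHA2 19 and EFNA2 18, but for EFNA2 another gene's end was the nearest to each of the 18. UNC5B had 17, and all 17 lay inside it. No H3K27ac peak lay within 100 kb of an end of 13 members. Among these were SLIT1, SLIT2, ROBO1, ROBO2, NTN1, DCC, UNC5C, UNC5D and SEMA3A. Deeper in the gene, however, SEMA3A held 11 H3K27ac peaks, ROBO2 4, ROBO1 3 and NTN1 2.

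Inside the genes, members differed widely in H3K4me1 and H3K27ac. UNC5B held 24 H3K4me1 and 17 H3K27ac peaks over 90.3 kb, or 26.6 and 18.8 per 100 kb. Only 0.0479% and 0.0160% of genes of 50 kb or longer were at least as dense, and these shares count UNC5B itself. PLXND1 had 13.6 H3K4me1 peaks per 100 kb, PLXNA1 12.9, EFNA5 10.9, SEMA3C 10.6, PLXNA2 9.45 and EPHA3 9.08. In 9 of the 33 longer members there was no peak of either mark, namely SLIT1, SLIT2, SLIT3, DCC, UNC5C, UNC5D, NRP2, PLXNA4 and SEMA5A. The share of all genes of 50 kb or longer without both marks was not counted, so this is not a trait of the members. The median H3K4me1 density was 0 peaks per 100 kb in all genes of that length and 1.11 in the 33 members. Pooled over the 33, H3K4me1 had 2.20 peaks per 100 kb against 1.47 in all genes of 50 kb or longer, and H3K27ac 0.835 against 0.727. The median per gene for H3K27ac lay the other way, at 0.256 peaks per 100 kb in the 33 members and 0.388 in all genes of that length, and 17 of the members' peaks were in UNC5B. EFNA5 and EPHA3 had many H3K4me1 peaks (32 and 34) and few of H3K27ac (5 and 6).

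**Figure D4:**
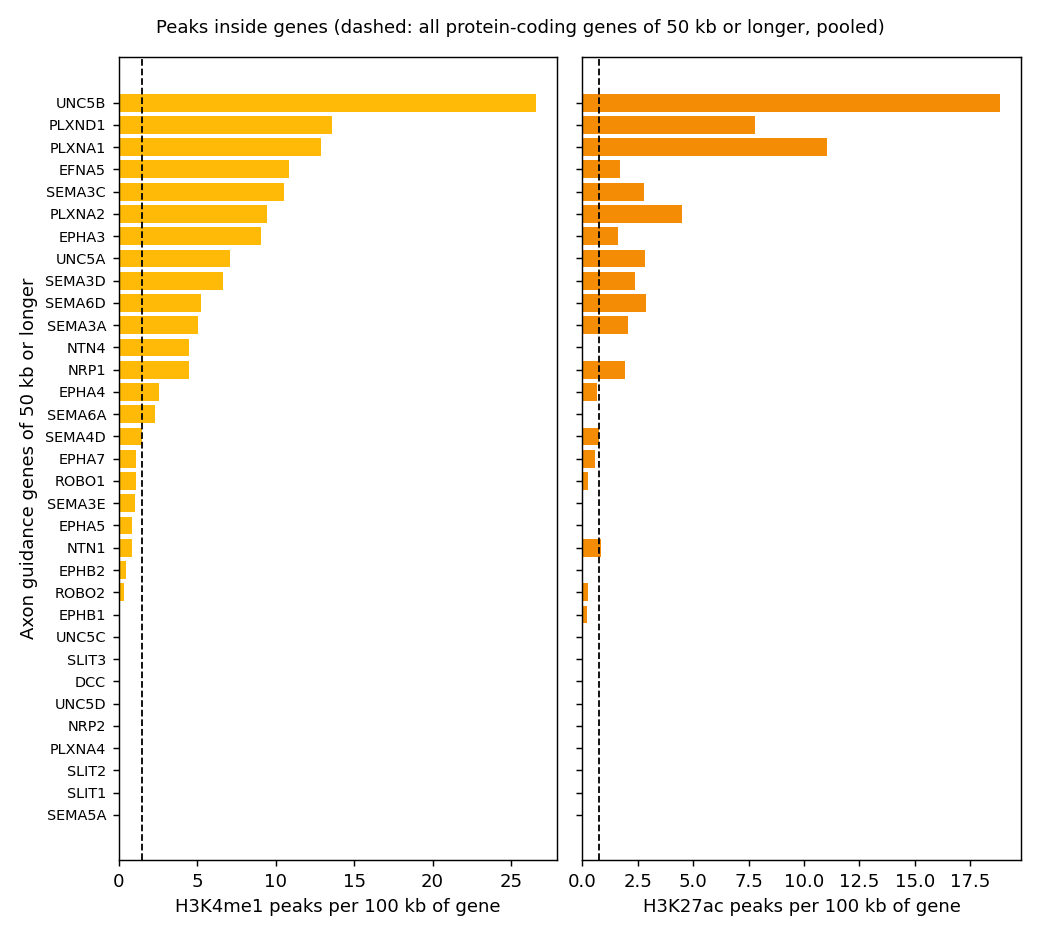
Peaks of H3K4me1 (left) and H3K27ac (right) per 100 kb inside each of the 33 axon guidance genes of 50 kb or longer, ordered by H3K4me1. The dashed lines are the pooled densities of all genes of that length, 1.47 and 0.727, and the bars run from 26.6 H3K4me1 peaks per 100 kb in UNC5B to 0 in 10 genes.

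Merging overlapping peaks of the 4 subunits gave 4917 sites in the genome that hold all 4. Of these, 32 lay in 15 members or 1 kb around them, and 24 of the 32 were more than 10 kb from both annotated ends. Such a site was thus found in 33.3% of members, against 11.9% of all genes and 22.9% of those of 50 kb or longer. SEMA6D held 6, SEMA3A and EFNA5 4 each and PLXND1 3. H3K27ac overlapped 22 of the 32, H3K4me1 20, H3K4me3 9, FLI1 5 and H3K27me3 none. The same overlaps and distances over all 4917 sites are not given here. Whether the sites in members differ from the others was therefore not tested. The site with the highest CHD4 was in SEMA3C (chromosome 7, 80870673 to 80871664), where CHD4 reached 9.91, RBBP4 9.25, HDAC2 7.91 and MTA2 5.86. A site in NTN4 reached 12.6 for MTA2 and 10.4 for HDAC2, 66.4 kb from its nearest end. That gene carries H3K27me3 at its start.

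PLXNA2, an A-class plexin (chromosome 1, 208022242 to 208244384), carried both kinds of chromatin in separate stretches. It held 17 H3K27me3 peaks, and 13 of the 19974 protein-coding genes held more. At its start H3K27me3 reached 8.06 and H3K4me3 9.57, with HDAC2 of 5.90. From 35.4 to 113 kb along the gene lay its 10 H3K27ac peaks, and its 21 H3K4me1 peaks and FLI1 peak fell in nearly the same stretch. A site with all 4 subunits and a second, narrow H3K4me3 peak lay 112 kb from the start. The other 16 H3K27me3 peaks ran from 161.2 to 221 kb, where no other target had a peak. None of the H3K27me3 peaks of PLXNA2 overlapped H3K27ac or H3K4me1.

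SEMA6D held its FLI1 peaks 179.6 to 239 kb from the start, among its H3K27ac peaks. A second H3K4me3 peak lay 532.6 to 534.2 kb from the start, at a site with all 4 subunits. H3K27me3 was also found inside ROBO3, with 3 peaks reaching 7.96 at -8.87 to -7.23 kb from its RefSeq start. PLXNA4 held 1 H3K27me3 peak of 6.61. It lay 1.008 to 1.514 kb from the RefSeq start of PLXNA4, just beyond the 1 kb window.

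**Figure D5:**
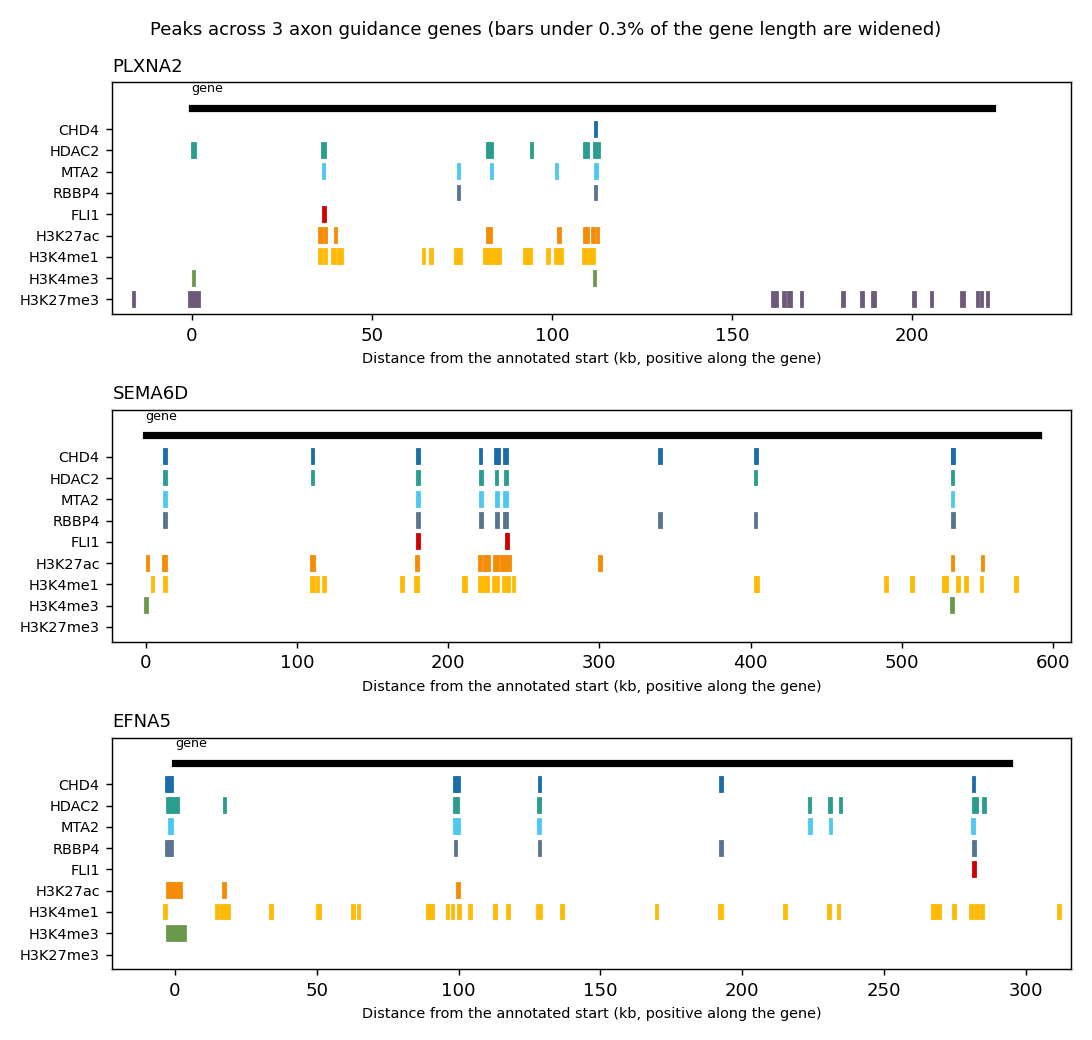
Peaks of the 9 targets (rows) along PLXNA2, SEMA6D and EFNA5, with distance from the annotated start in kb on the horizontal axis and the gene as a black bar. In PLXNA2 the H3K27me3 peaks lie at the start and beyond 161.2 kb, apart from the H3K27ac and H3K4me1 peaks between 35.2 and 113 kb.

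A further 67 genes of the pathway, other ligands and receptors and the proteins that carry their signals inside the cell, were set beside the members. H3K4me3 was at the ends of 40 (59.7%, against 57% of all genes) and H3K27ac of 25 (37.3%, against 39.4%), both near the background. HDAC2 was at the ends of 37 (55.2%, against 39.1%) and MTA2 of 25 (37.3%, against 20.9%). H3K4me1 was at 13 (19.4%, against 7.7%) and H3K27me3 at 5 (7.46%, against 2.37%). MTA2 was thus at 37.3% of these genes and at 15.6% of the members, a difference without a test. All 4 subunits were at 7 of them (10.4%, against 5.63%). FLI1 was within 100 kb of 10 (14.9%), against 12.3% of all genes. The strongest of these FLI1 peaks was in KALRN with a −log10 p of 55.2. A stronger one, of 69.8, lay inside NTNG1, a membrane-anchored netrin relative, 123 kb from its nearest end. Near CXCR4, the receptor of CXCL12, 2 FLI1 peaks lay 44.4 and 44.9 kb away, and each overlapped all 4 subunits.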

How the data were processed

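ChIP-seq peak lists of 9 targets in SK-N-MC cells, 1 sample per target, were grouped by the target in the labels. The tools bedtools 2.27.1, deepTools 3.2.1, SAMtools 1.9, BWA 0.7.17, FastQC 0.11.7 and Trimmomatic 0.36 and the build GRCh38 are listed without roles, per the submitters' processing notes. Peak calling by MACS2 is read from the deposited peak names. Its version, its control library and whether libraries were pooled are not given in the sources used. Each peak has a fold enrichment (a ratio), a −log10 p and a −log10 q from the authors' peak caller. The deposited score was not used. Lists began at different −log10 p (5.02 in FLI1, 7.01 in RBBP4, 9.00 or more in the other 7) and held 1561 to 31247 peaks, so targets cannot be ranked against each other by their shares. Depth is unknown, since no read numbers are in the lists.

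Positions were converted to 1-based GRCh38 coordinates, and genes came from the RefSeq table of GRCh38.p14, without chromosome Y. A minimum of 1 bp counted as overlap. RefSeq starts, strands and promoter sequences were found for 38 of 45 members, and for 30 the start was an annotated gene end. Overlapping CHD4, HDAC2, MTA2 and RBBP4 peaks were joined into sites. Python 3.11.15 with pandas 2.3.3 was used, and the overlap code was tested on simulated data. No test was run, since there is 1 sample per target and genes are not replicates. The members, lists, windows and alternatives were chosen with earlier results of these data known. Described in full were members with FLI1 within 100 kb, with H3K27me3 or all 4 subunits at an end, and the 5 with the highest H3K27ac there. The others named inside genes or by family were chosen after their values were seen.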

Additional observations from a re-analysis of the deposited data

How the results depend on the processing

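The counts of members were recomputed keeping in each list only peaks of −log10 p 15 or more, with the summit inside the window, with the RefSeq start alone, with other windows for FLI1 and H3K27ac, and, added after the data had been seen, with the whole gene and 1 kb around it. A count was taken as moved when it changed by over 1.5 times. At a −log10 p of at least 15, the members with a peak near an end numbered 3 for CHD4, 4 for MTA2, 5 for RBBP4 and 5 for H3K4me1, and those with all 4 subunits 2, PLXND1 and EPHB4. In that setting 5 members had FLI1 within 100 kb, as did 6 of the other pathway genes, 15 members held RBBP4 inside the gene and 4 held H3K27me3 there, and 0 had H3K27ac or H3K4me1 without H3K4me3 at an end. The other 22 counts stayed within 1.5 times. With summits inside the window 31 of the counts did so, and the exception was H3K27ac or H3K4me1 without H3K4me3, with 3 members. Around the start alone, which leaves out 7 members by its construction, H3K4me1 was at 1 member and H3K27me3 without H3K4me3 at 1, EFNA2. With 50 kb in place of 100 kb, 6 members had FLI1. Over the whole gene the counts were 23 for CHD4, 34 for HDAC2, 23 for MTA2, 30 for RBBP4, 9 for FLI1, 28 for H3K27ac, 31 for H3K4me1 and 7 for H3K27me3, since the window is longer. H3K4me3 at 31 members, HDAC2 at 21 and H3K27me3 at 4 stayed within 1.5 times in the alternatives that kept the end or start windows. No paired analysis was possible because each target has 1 sample and no test was run. Depth is unknown, so sites missed for lack of reads cannot be told from sites without the target.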
